A study of Mus musculus with 6 samples.

Results

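The cytosolic ribosomal protein genes were followed in choroid endothelial cells (ECs), the fenestrated vessel lining cells of the vascular layer under the retina, at postnatal day 5 (P5) and postnatal day 30 (P30). The genes were taken by symbol, as Rpl or Rps with a number or as Rplp0 to Rplp2, without pseudogene symbols and without the S6 kinases, which gave 85 of the 22026 symbols in the files. Of these 85 genes, 46 encode proteins of the large subunit, 30 encode proteins of the small subunit, 8 are paralogs of a ribosomal protein gene and 1, Rps19bp1, shares only the symbol. All 6 isolations came from untreated 129/B6 mice, male and female at P30 and of a sex not given in the sources used here at P5, with 7 animals pooled per isolation and 3 isolations per age. Anti-VE-Cadherin was injected into the living animals at both ages, the RPE/choroid was dissected and digested, and the labelled cells were sorted before bulk RNAseq, so each value is a mean over every cell that passed the gate. Values are FPKM, fragment counts scaled to transcript length and to an upper quartile measure of library size, and the read depth behind them is unknown. In a bulk isolation, fewer cells of a type and less RNA per cell cannot be told apart.

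The ribosome is built from a small subunit, which decodes the mRNA, and a large subunit, which joins amino acids and lets the new protein out through a tunnel. Each ribosome holds 1 copy of most of its proteins, and a cell that makes ribosomes for growth makes these proteins in step with ribosomal RNA. Mammalian ribosomal protein mRNAs open with a run of C and T bases through which mTOR signalling controls their translation, and their genes have left many reverse-transcribed copies in the genome. The proteins are short, with a median of 152 residues over the core genes in GENCODE M1 and a range from 51 to 419.

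By correlation over the ribosomal protein genes, P30 replicates 1 and 2 stood far from P5, and P30 replicate 3 stood apart from both and nearer to P5. Over the 80 of these genes with a mean of at least 5 FPKM at either age, the Pearson correlation of log2(FPKM + 1) was 0.981 to 0.990 among the P5 isolations and 0.989 between P30 replicates 1 and 2. It was 0.834 and 0.836 between P30 replicate 3 and P30 replicates 1 and 2, and 0.925 to 0.929 between P30 replicate 3 and the P5 isolations. P30 replicates 1 and 2 had 0.666 to 0.705 with the P5 isolations. These correlations run across genes, which are not independent replicates. Over all 12481 genes tested, P30 replicate 3 instead had 0.902 and 0.924 with the other P30 isolations and 0.829 to 0.878 with the P5 isolations. By correlation, therefore, P30 replicate 3 stood nearer to P5 for these genes and nearer to P30 for the whole transcriptome. Correlation ignores a shift in level. P30 replicate 3 lay below every P5 isolation in 62 of 80 genes, against 51% of all genes tested.

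**Figure D1:**
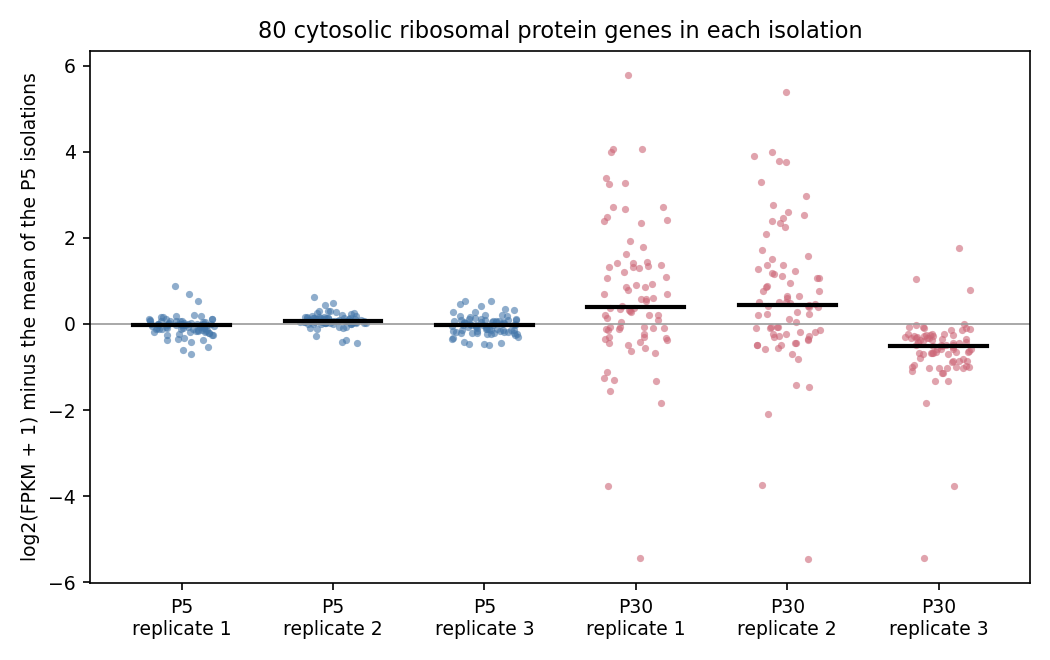
Each point is 1 of 80 ribosomal protein genes, as log2(FPKM + 1) in an isolation (x axis) minus the mean of the 3 P5 isolations (y axis), and each bar is the median of an isolation. The genes spread to over 5 log2 units above P5 in P30 replicates 1 and 2, while most lie just below 0 in P30 replicate 3.

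The summed FPKM of all 85 genes was 31387, 33639 and 29277 in the P5 isolations and 37283, 35695 and 21336 in P30 replicates 1, 2 and 3. The means were 31434 ± 2182 at P5 and 31438 ± 8785 at P30 (SD, n = 3), near-equal means that average 2 isolations above every P5 isolation with 1 below. As a share of all FPKM, the genes took 2.04% to 2.26% at P5, 2.28% and 2.06% in P30 replicates 1 and 2, and 1.36% in P30 replicate 3. The ratio of the large subunit sum to the small subunit sum was 1.11 to 1.14 at P5, 0.951 and 0.972 in P30 replicates 1 and 2, and 1.13 in P30 replicate 3. Both P30 replicates 1 and 2 were at least 2-fold above P30 replicate 3, on the FPKM + 1 scale, in 41 of 80 genes, against 3.71% of all genes tested. The reverse, P30 replicate 3 at least 2-fold above both, held for 0 of 80 genes and for 0.985% of all. In 31 of 80 genes, P30 replicates 1 and 2 lay above every P5 isolation while P30 replicate 3 lay below every P5 isolation, a pattern seen in 382 of the 12481 genes tested.

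Markers of some other cell types moved with this split. The 8 endothelial markers, among them Cdh5, Pecam1 and Kdr, were abundant in all 6 isolations, with a summed FPKM of 19339 to 20111 at P5 and 27202 to 33442 at P30. Of markers of the retinal pigment epithelium (RPE), 7 of 8 passed the FPKM minimum, and the list summed to 66.5 to 152 FPKM at P5 and to 3825, 2133 and 499 in P30 replicates 1, 2 and 3. The defining visual cycle enzyme Rpe65 was listed at 0 in P5 replicates 2 and 3. Of the photoreceptor markers, 6 of 8 passed, and the list summed to 2.70 to 11.7 at P5 and to 366, 256.2 and 39.6 at P30, with Rcvrn and Gngt1 listed at 0 in every P5 isolation and Pdc, Gngt1 and Crx at 0 in P30 replicate 3. Of the erythroid markers, 5 of 6 passed, with sums of 175 to 491 at P5 and of 1385, 1829 and 442 at P30. A median of 62.6% of the coding sequence of these erythroid genes was found elsewhere in the genome, as counted below in windows. Their FPKM is therefore uncertain. The pericyte and smooth muscle list summed to 544 to 1842 at P5 and to 2172, 7008 and 3991 at P30, and the fibroblast list to 405 to 832 at P5 and to 1411, 3178 and 1779 at P30, so that in both P30 replicate 3 lay between the other P30 isolations. Between the ages, 9 of 10 proliferation genes and 5 of 8 macrophage and leukocyte markers were lower at P30 with an adjusted p under 0.05, and 6 of 9 pericyte and smooth muscle, 4 of 6 fibroblast, 6 of 7 RPE, 4 of 6 photoreceptor and 2 of 5 erythroid markers were higher, where 22.4% of all genes were lower and 16.1% higher. The part of these cells in the values below was not tested. The main counts are therefore given with all isolations, without P30 replicate 3 and without P30 replicates 1 and 2. So are the log2 changes of some named genes, while those of the others are given with all isolations only.

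To compare the ages, log2(FPKM + 1) of all 12481 genes was fitted with limma, and 4 of 80 ribosomal protein genes were at least 2-fold lower at P30 with an adjusted p under 0.01, against 5.82% of all genes. These were Rps23, Rpl26, Rpl29 and Rplp0. None of the 80 was called higher at P30 by the same rule, against 5.89% of all genes. At an unadjusted p under 0.05 from limma 9 of 80 were higher, against 2584 of all 12481 genes. With an adjusted p under 0.05 and no fold limit, 14 of 80 were lower at P30 and 3 were higher, against 22.4% and 16.1% of all genes. The median log2 change between the ages was 0.06 for the 80 genes and -0.10 for all genes. Every P30 isolation lay below every P5 isolation in 20 of 80 genes, against 33% of all genes, and above in 3 of 80, against 22%. Each of these shares was below that of all genes. The 14 lower genes included Rps23, Rpl26, Rpl29, Rpl10, Rplp0, Rps2, Rps3, Rplp1, Rpl22, Rpl15, Rpl36al, Rpl7a and Rpl41, in order of size from -5.45 to -0.39. Leaving out P5 replicate 2 gave 4 genes lower at an adjusted p under 0.05 and leaving out P5 replicate 1 gave 6, while leaving out P5 replicate 3 gave 1 gene higher. The shares of all genes in these fits are not given here.

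The result turned on P30 replicate 3. Without it, 24 of 81 genes were called higher at P30 and 6 lower, against 6.77% and 5.61% of all genes, and with an adjusted p under 0.05 the counts were 41 and 13, against 18% and 20.7%. The median log2 fold change rose to 0.47, against -0.07 over all genes. With P30 replicate 3 as the only P30 isolation, its spread being assumed equal to that of P5, 1 of 82 genes was called higher and 2 lower, against 2.79% and 5.25% of all genes. With an adjusted p under 0.05 the counts were then 2 and 34, against 13.8% and 26.2%, and the median fell to -0.50. Both fits use the same P5 isolations, so their results are given side by side for single genes and not as an overlap.

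The 3 genes that passed an adjusted p of 0.05 as higher at P30 encode small subunit proteins. All 3 also have an identical place elsewhere in mm9, as counted below, so their FPKM is uncertain. Rps29, a zinc-binding protein of the small subunit head, had 11.6, 11.99 and 11.97 FPKM at P5 and 709, 541 and 43.0 at P30 in replicates 1, 2 and 3 (limma log2 change of 4.32 with SE 0.94, adjusted p = 0.011). The ages did not overlap, though P30 replicate 3 stayed far below the other 2. The adjusted p without each isolation in turn ran from 9.51e-05 to 0.0454, and with P30 replicate 3 alone the log2 fold change was 1.77 (limma adjusted p = 0.00632).

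Rps13, a protein of the small subunit, had 5.27, 4.43 and 3.77 FPKM at P5 and 90.7, 74.0 and 10.2 at P30 (limma log2 change of 2.96 with SE 0.74, adjusted p = 0.0178). The groups did not overlap, and the adjusted p rose to at most 0.0687 when P5 replicate 2, P5 replicate 3 or P30 replicate 2 was left out. Rps27, a zinc-finger protein of the small subunit, had 29, 31.7 and 18.2 FPKM at P5 and 141, 133 and 45.1 at P30 (limma log2 change of 1.85 with SE 0.44, adjusted p = 0.015). It too had no overlap, and its adjusted p was 0.0649 without P5 replicate 3. With P30 replicate 3 alone its log2 change was 0.79 (limma adjusted p = 0.138), and that of Rps13 was 1.04 (limma adjusted p = 0.0377). Both genes were lower in P30 replicate 3 than in the other P30 isolations.

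Rpl12, Rpl36a and Rpl34 followed by size of rise and did not pass an adjusted p of 0.05 with all isolations. Like Rps28 and Rpl23 below, they have best places elsewhere in mm9 of 99.4% to 100% identity, so their FPKM is uncertain. Rpl12, which forms the base of the ribosomal stalk, had 11.4, 12.6 and 10.5 FPKM at P5 and 209, 184 and 10.8 at P30 (limma log2 change of 2.63 with SE 1.01, adjusted p = 0.0745). Rpl36a, a large subunit protein encoded on the X chromosome, had 7.70, 14.9 and 15.8 FPKM at P5 and 209, 212 and 9.93 at P30 (limma log2 change of 2.57 with SE 1.08, adjusted p = 0.096). Rpl34, of the large subunit, had 30.9, 36.8 and 24.2 FPKM at P5 and 295, 421 and 28.5 at P30 (limma log2 change of 2.31 with SE 0.90, adjusted p = 0.0778). In these 3 genes P30 replicate 3 lay within the P5 range and the other P30 isolations lay far above it. Without P30 replicate 3 the log2 fold changes were 3.98 (limma adjusted p = 9.84e-05), 3.997 (limma adjusted p = 0.000517) and 3.50 (limma adjusted p = 0.00034) in the same order, and with it as the only P30 isolation they were -0.08 (limma adjusted p = 0.763), -0.28 (limma adjusted p = 0.642) and -0.08 (limma adjusted p = 0.829). The same split was seen in Rps28, with 29.6, 25.5 and 27.0 FPKM at P5 and 296, 276 and 17.8 at P30. Rpl23, which lies at the subunit interface, had 80.4, 83.8 and 77.1 FPKM at P5 and 535, 553 and 63.6 at P30.

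**Figure D2:**
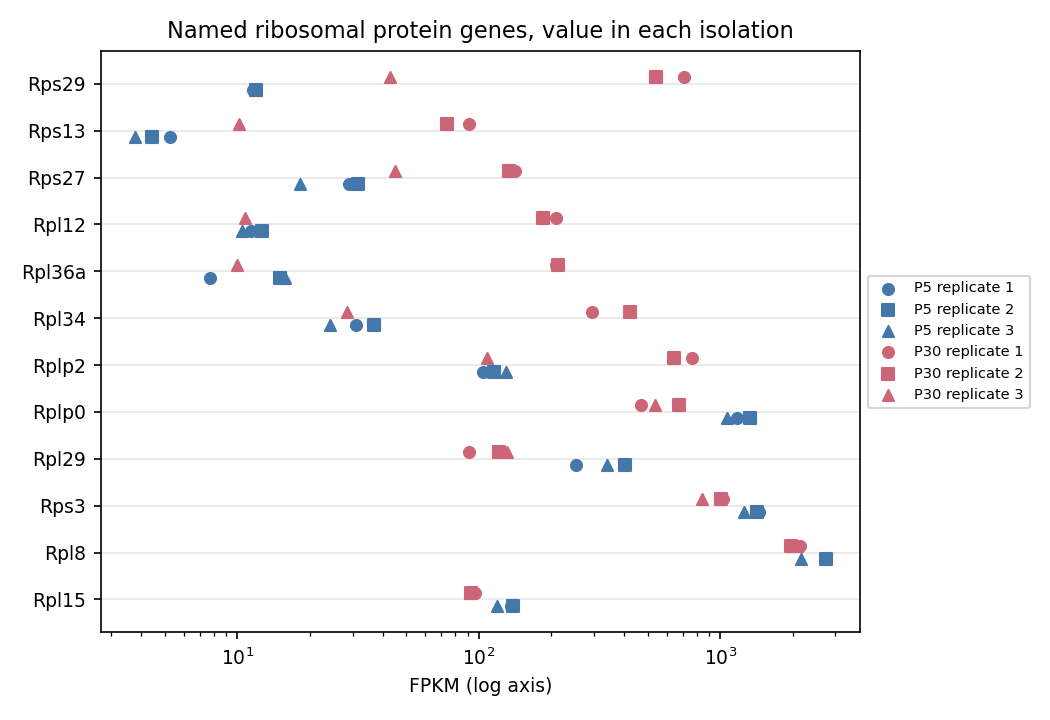
FPKM on a log axis of 12 named ribosomal protein genes in each isolation, P5 in blue and P30 in red, with circles, squares and triangles for replicates 1, 2 and 3. For Rps29, Rps13, Rps27, Rpl12, Rpl36a, Rpl34 and Rplp2 the red triangle (P30 replicate 3) lies far from the other 2 red symbols, whereas for Rplp0, Rpl29, Rps3, Rpl8 and Rpl15 the red symbols lie together, at or below the blue ones.

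The falls were led by 2 genes that nearly vanished from the P30 values. Rps23 (chr13:91062727-91064329 of mm9, plus strand), which sits at the decoding centre, had 33.4, 69.3 and 38.8 FPKM at P5 and 0.05, 0.04 and 0.06 at P30 (limma log2 change of -5.45 with SE 0.37, adjusted p = 0.00016). Rpl26 (chr11:68715085-68720491 of mm9, plus strand), at the rim of the exit tunnel, had 25.1, 9.55 and 9.36 FPKM at P5 and 0.05, 0.06 and 0.05 at P30 (limma log2 change of -3.75 with SE 0.52, adjusted p = 0.00185). In both, all P30 isolations lay below all P5 isolations, and near-identical copies of both genes carried FPKM at P30, as given below. Leaving out any P5 isolation ended the call of Rpl26 at an adjusted p under 0.01, with values up to 0.0137, and no single isolation ended that of Rps23. The log2 changes of Rps23 and Rpl26 without P30 replicate 3 were -5.45 (limma adjusted p = 0.000388) and -3.75 (limma adjusted p = 0.00321), and with it as the only P30 isolation they were -5.43 (limma adjusted p = 0.00555) and -3.76 (limma adjusted p = 0.0165).

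Rpl29 and Rplp0 also fell. Both have places of high identity elsewhere in mm9, 62 for Rpl29 and 4 for Rplp0, so their FPKM is uncertain. Rpl29 (chr9:106331785-106333899 of mm9, plus strand), a large subunit protein, had 253, 403 and 339 FPKM at P5 and 91.1, 121 and 130.3 at P30 (limma log2 change of -1.52 with SE 0.20, adjusted p = 0.00157), with an adjusted p of up to 0.0118 from limma, reached without P5 replicate 3. Rplp0 (chr5:116009476-116013736 of mm9, plus strand), the scaffold of the ribosomal stalk, had 1177, 1333 and 1063 FPKM at P5 and 469, 677 and 539 at P30 (limma log2 change of -1.09 with SE 0.16, adjusted p = 0.00205), with up to 0.0130 from limma when P5 replicate 1, P5 replicate 2 or P30 replicate 1 was left out. The P30 isolations of both genes lay together and below P5. Without P30 replicate 3 the log2 changes of Rpl29 and Rplp0 were -1.62 (limma adjusted p = 0.00294) and -1.07 (limma adjusted p = 0.00604), and with it alone they were -1.31 (limma adjusted p = 0.026) and -1.14 (limma adjusted p = 0.0112). Rpl10, which completes the peptidyl transferase region, had 151, 159 and 125 FPKM at P5 and 48.1, 32.8 and 91.0 at P30 (limma log2 change of -1.44 with SE 0.33, adjusted p = 0.0135), and here P30 replicate 3 was the highest of the P30 isolations. Of the 14 genes lower at P30 with an adjusted p under 0.05, 10 lost it without at least 1 isolation, and the exceptions were Rpl26, Rpl29, Rplp0 and Rps23.

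Among the most abundant ribosomal protein genes, Rpl8, Rplp1, Rps9 and Rpl4 had lower mean FPKM at P30, and 1 of these 4, Rplp1, passed an adjusted p of 0.05. Rpl8, a large subunit protein, had 2729.7, 2738 and 2165 FPKM at P5 and 2147, 1972 and 2072 at P30 (limma log2 change of -0.29 with SE 0.12, adjusted p = 0.0972). Rplp1, a stalk protein, had 2232, 2536 and 2076 FPKM at P5 and 1423, 1519.8 and 1864 at P30 (limma log2 change of -0.51 with SE 0.14, adjusted p = 0.023), and its adjusted p reached 0.0974 without P5 replicate 1, P5 replicate 2, P30 replicate 1 or P30 replicate 2. In both genes every P30 isolation was below every P5 isolation. Rps9 had 1791, 2038 and 1614 FPKM at P5 and 1660.4, 1531 and 1143 at P30 (limma log2 change of -0.34 with SE 0.16, adjusted p = 0.137). Rpl4 had 1757, 1796 and 1736 FPKM at P5 and 1664, 1449 and 1000.1 at P30 (limma log2 change of -0.39 with SE 0.18, adjusted p = 0.124). In Rps9 and Rpl4, P30 replicate 3 was the lowest of all 6 isolations, as it was in 49 of 80 genes, against 2912 of the 12481 genes tested. Rps15, a small subunit protein and the next gene by mean FPKM, went the other way in its mean, with 1045, 983 and 793 FPKM at P5 and 1961, 1727 and 747 at P30 (limma log2 change of 0.54 with SE 0.34, adjusted p = 0.24), and here too P30 replicate 3 was the lowest. Rps3, at the mRNA entry, is shown beside them for its lack of a near-full copy. Like Rpl8, it has no place elsewhere in mm9 that matches at least 80% of its coding sequence at 90% identity or more. It had 1444, 1421 and 1256 FPKM at P5 and 1026, 1011 and 839 at P30 (limma log2 change of -0.52 with SE 0.12, adjusted p = 0.0122), with every P30 isolation below every P5 isolation, and without P5 replicate 1 or 2 its adjusted p was up to 0.0588.

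Among the lowest core genes were Rps12, Rpl26, Rpl21 and Rpl31. Rps12 had 1.97, 3.78 and 6.37 FPKM at P5 and 5.19, 6.59 and 1.10 at P30. It did not reach the minimum of 5 FPKM and was not tested. Rpl21 had 12.5, 18.1 and 17.5 FPKM at P5 and 12.3, 9.42 and 12.6 at P30 (limma log2 change of -0.45 with SE 0.24, adjusted p = 0.176). Rpl31, at the exit tunnel, had 22.1, 24.6 and 15.8 FPKM at P5 and 21.8, 31.5 and 5.01 at P30 (limma log2 change of -0.39 with SE 0.58, adjusted p = 0.625), with P30 replicate 3 the lowest of the 6. Genes that share reads with near-identical copies, as most of these do, have uncertain FPKM.

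The stalk recruits elongation factors and is made of Rplp0, Rplp1, Rplp2 and Rpl12. The values listed for its 4 symbols differed in direction, although most FPKM of Rplp2 at P5 was listed at a near-identical copy, as given below. Rplp2 had 104, 115 and 130.1 FPKM at P5 and 766, 643 and 108 at P30 (limma log2 change of 1.69 with SE 0.67, adjusted p = 0.0813), the pattern of Rpl12, while Rplp0 and Rplp1 fell. The sum of Rplp2 and that copy was lower in every P30 isolation than in every P5 isolation. Rpl5 and Rpl11 form, with 5S RNA, the particle that binds Mdm2 when ribosome assembly is disturbed. Rpl5 had 102, 127 and 137 FPKM at P5 and 157, 192 and 59.6 at P30 (limma log2 change of 0.01 with SE 0.40, adjusted p = 0.988), and Rpl11 had 66.4, 66.1 and 65.2 FPKM at P5 and 167, 138 and 40.1 at P30 (limma log2 change of 0.56 with SE 0.48, adjusted p = 0.375). Both were highest in P30 replicates 1 and 2 and lowest in P30 replicate 3. Their log2 changes without P30 replicate 3 were 0.52 (limma adjusted p = 0.0456) and 1.20 (limma adjusted p = 0.00118), and with it alone they were -1.01 (limma adjusted p = 0.0209) and -0.70 (limma adjusted p = 0.0126).

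Some ribosomal proteins are made as fusions with ubiquitin or a ubiquitin-like protein, and others lack an Rpl or Rps number, so that the symbol rule misses them. Rps27a, the fusion within the rule, had 38.4, 75.0 and 87.6 FPKM at P5 and 160.2, 151 and 40.1 at P30 (limma log2 change of 0.64 with SE 0.55, adjusted p = 0.378). Fau, which yields Rps30, had 165, 153 and 129 FPKM at P5 and 719, 617 and 164 at P30 (limma log2 change of 1.49 with SE 0.51, adjusted p = 0.0519). Fau shared the split of Rpl12 and has 1 place elsewhere in mm9 of 100% identity, so its FPKM is uncertain. Rpsa, of the small subunit and also a laminin receptor, fell, with 221, 236 and 231 FPKM at P5 and 86.0, 93.0 and 131 at P30 (limma log2 change of -1.17 with SE 0.16, adjusted p = 0.00181). It has 16 places elsewhere in mm9 of up to 99.3% identity, so its FPKM is uncertain. Gnb2l1, which encodes the small subunit scaffold Rack1 and has no place of high identity elsewhere, fell as well, with 2435, 2390.2 and 2109 FPKM at P5 and 1434, 1411 and 1453 at P30 (limma log2 change of -0.69 with SE 0.10, adjusted p = 0.00218). Its 3 P30 isolations lay close together.

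Because a read that fits several places can be counted at any of them or at none, the copies of each gene in the genome were counted. Of the 84 genes with a GENCODE M1 coding sequence, 78 had at least 1 further place in mm9 that matched at least 80% of the coding sequence at 90% identity or more, with a median of 8.5 places and up to 79 for Rpl21. For 20 of them a place was identical. The 6 genes with no such place included Rpl3l, Rpl8, Rpl39l, Rps3 and Rps19bp1. Rpl41 was not matched by symbol in that annotation and is not included. Read length and the treatment of multiply mapped reads were not given in the sources used here.

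The difference between P30 replicates 1 and 2 and P30 replicate 3 was larger in ribosomal protein genes with more of their coding sequence found elsewhere. Coding sequences were cut into all windows of 50 bases, and the share of windows found exactly at another place was taken for each gene. The median difference in log2(FPKM + 1) was 0.48 in the 15 ribosomal protein genes with under 50% of such windows, 1.14 in the 27 with 50% to 90% and 1.59 in the 37 with 90% or more. Among other genes tested the medians were 0.05 in 11518, 0.23 in 345 and 0.01 in 88, and among those of at most 150 residues 0.03 in 763, 0.29 in 85 and 0.12 in 40. Both P30 replicates 1 and 2 were at least 2-fold above P30 replicate 3 in 3 of 15, 13 of 27 and 25 of 37 ribosomal protein genes, and in 2.57%, 14.2% and 11.4% of the other genes in the same classes. Across the 79 ribosomal protein genes Spearman's rho between share and difference was 0.303, and between coding length and difference it was -0.342, over points that share the 3 libraries. The difference from P5 also varied by class. The median for P30 replicates 1 and 2 minus P5 was -0.18, 0.35 and 1.10, and the median for P30 replicate 3 minus P5 was -0.38, -0.58 and -0.52. These classes were drawn up after the split had been seen. In the class with under 50%, 0 genes passed an adjusted p of 0.05 as higher at P30 and 3, Rpl22 and Rps3 among them, passed as lower. Among other genes of that class 1920 of 11518 passed as higher and 2634 as lower, and 3 of 15 is near that share. The 3 ribosomal protein genes that passed as higher were all among the 37 with 90% or more, where 6 of 88 other genes passed as higher.

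**Figure D3:**
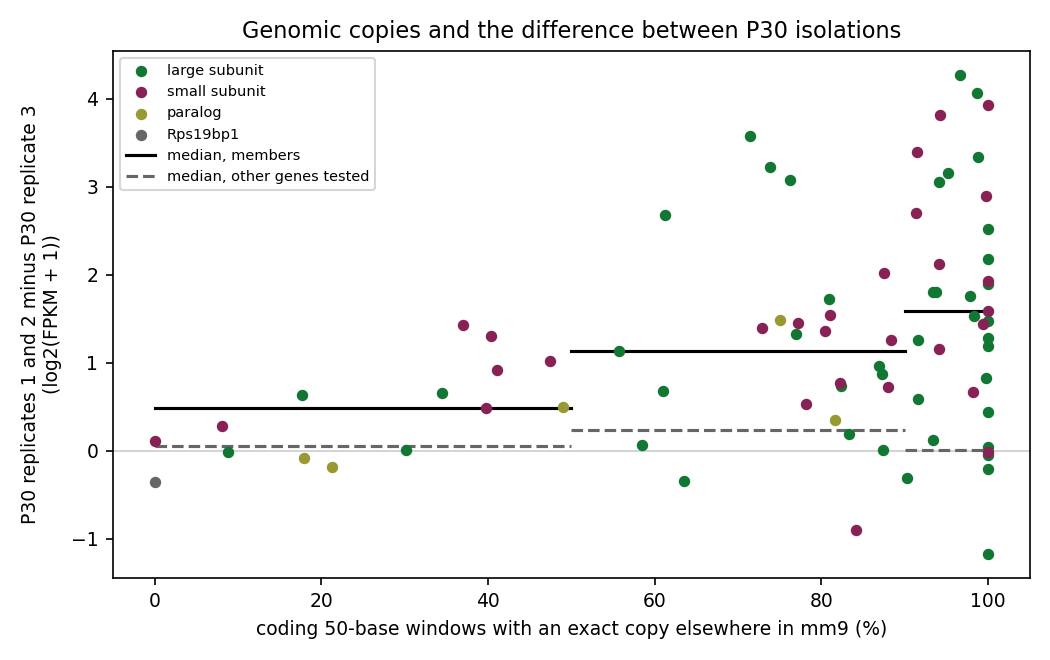
Each point is a ribosomal protein gene, with the share of its coding 50-base windows that have an exact copy elsewhere in mm9 (x axis, %) and the mean log2(FPKM + 1) of P30 replicates 1 and 2 minus that of P30 replicate 3 (y axis). Solid lines are the medians of 0.48, 1.14 and 1.59 in the 3 classes of share, and dashed lines are those of the other genes tested, which stay between 0.01 and 0.23.

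For 21 genes the files list a symbol whose exons cover most of such a place, 24 symbols in all, and 1 of them, Orc5, is a separate gene with a place of Rpl22l1 inside it and not a copy. The Rpl26 coding sequence of 438 bases differs in 2 bases from a copy at chr5:3236431-3236868 of mm9 (plus strand), listed as Gm15772. The 150 bases of coding positions 157 to 306, counted from the start codon, hold both differences, which are in capitals and the only bases by which reads within the coding sequence could be told apart.
Rpl26, coding bases: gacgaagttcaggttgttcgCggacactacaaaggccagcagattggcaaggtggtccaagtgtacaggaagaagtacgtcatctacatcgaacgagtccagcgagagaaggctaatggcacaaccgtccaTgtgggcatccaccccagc
Gm15772, the same bases: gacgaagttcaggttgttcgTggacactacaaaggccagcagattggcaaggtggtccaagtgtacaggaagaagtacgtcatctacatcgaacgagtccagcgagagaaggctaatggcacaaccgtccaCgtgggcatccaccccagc

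Gm15772 had 86.9, 131 and 132 FPKM at P5 and 617, 579 and 100.84 at P30 (limma log2 change of 1.52 with SE 0.65, adjusted p = 0.0995), so that P30 replicates 1 and 2 were high where Rpl26 itself was near 0. A second copy of Rpl26, Gm10136, had 306, 342 and 384 FPKM at P5 and 278, 249 and 215 at P30 (limma log2 change of -0.48 with SE 0.13, adjusted p = 0.0262). The sum of the 3 symbols was 418, 482 and 525 at P5 and 895, 828 and 316 at P30, with P30 replicate 3 the lowest of the 6. Gm15450, identical to the coding sequence of Rps23, had 113, 98.7 and 160.5 FPKM at P5 and 275, 263 and 81.2 at P30 (limma log2 change of 0.57 with SE 0.45, adjusted p = 0.35). With Rps23 it summed to 147, 168 and 199 at P5 and to 275, 263 and 81.3 at P30. In both cases the sum did not show the fall called for the gene alone, and P30 replicates 1 and 2 lay above P5 and P30 replicate 3 below. Each FPKM rests on the length of its own gene model, which is not in the files, so the sums are approximate.

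For Rplp2 the gene and its copy differed between isolations in opposite directions. The copy Rplp2-ps1, of 99.4% identity, had 1963, 1830.2 and 1556 FPKM at P5 and 916, 854 and 1316 at P30 (limma log2 change of -0.81 with SE 0.18, adjusted p = 0.0116), and it carried most of the FPKM at P5. The sum of both was 2066, 1946 and 1686 at P5 and 1682, 1496 and 1425 at P30, so every P30 isolation was below every P5 isolation, although Rplp2 alone was highest in P30 replicates 1 and 2. Rpl36 with its copy Gm13611 gave 271, 314 and 274 at P5 and 341, 284 and 180.1 at P30, whereas Rpl36 alone had 14.1, 13.9 and 25.2 FPKM at P5 and 173, 142 and 16.7 at P30. For Rps15a, the gene and its copies Gm11968 and Gm13253 gave 461, 447 and 394 at P5 and 190, 225 and 211 at P30. Gm9846, identical to the coding sequence of Rps27, had 0.03, 0.4 and 3.46 FPKM at P5 and 200.4, 219 and 0 at P30 (limma log2 change of 4.25 with SE 1.96, adjusted p = 0.124).

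**Figure D4:**
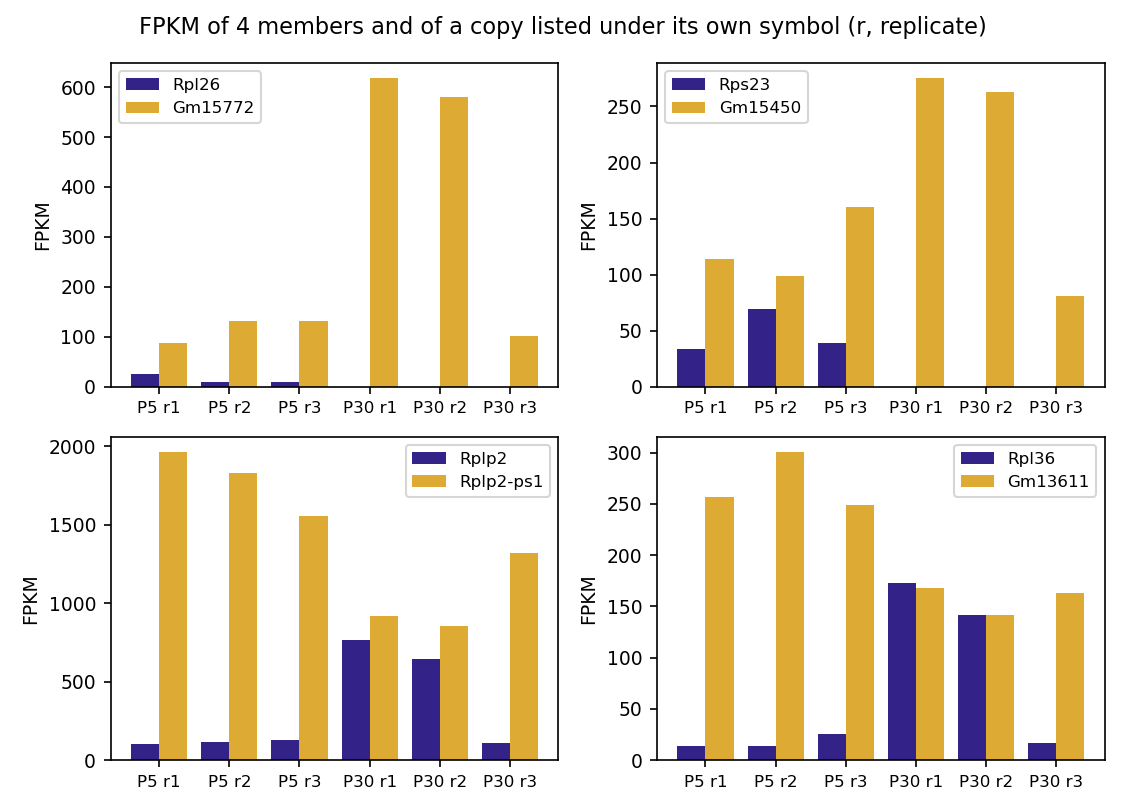
FPKM in each isolation of Rpl26, Rps23, Rplp2 and Rpl36 (dark bars) and of a near-identical copy that the files list under its own symbol (yellow bars), on linear axes from 0, with r for replicate. Rpl26 and Rps23 are at 0.04 to 0.06 in every P30 isolation while their copies are not, and Rplp2 and Rpl36 take a larger part of the pair's FPKM in P30 replicates 1 and 2 than in the other 4 isolations.

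Paralogs are separate genes that encode a variant of the same protein. Of the 8 in the files, 5 reached 5 FPKM. Rpl22l1 had 147, 154 and 144 FPKM at P5 and 377, 339 and 127 at P30 (limma log2 change of 0.76 with SE 0.38, adjusted p = 0.143), while its parent Rpl22 had 364, 379 and 301 FPKM at P5 and 225, 269 and 246 at P30 (limma log2 change of -0.49 with SE 0.12, adjusted p = 0.0178). The ratio of Rpl22l1 to Rpl22 was 0.405 to 0.479 at P5, 1.67 and 1.26 in P30 replicates 1 and 2, and 0.516 in P30 replicate 3. The adjusted p of Rpl22 reached 0.0816 without P5 replicate 1 or P5 replicate 2. Rpl36al had 255, 286 and 288 FPKM at P5 and 195, 243 and 172 at P30 (limma log2 change of -0.45 with SE 0.14, adjusted p = 0.0394), and it lost its adjusted p under 0.05 without any isolation other than P30 replicate 2, with values up to 0.128. It was 18.2 to 33.1 times as high as Rpl36a at P5 and 17.3 times in P30 replicate 3, but 0.932 and 1.15 times in P30 replicates 1 and 2. Rpl36a has 10 places elsewhere in mm9 of up to 100% identity, and Rpl22l1 has 3 of up to 99.5%. The ratios of both pairs are therefore uncertain.

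Rps27l, an Rps27 paralog that p53 induces, had 159.8, 186 and 186 FPKM at P5 and 203, 169.9 and 131 at P30 (limma log2 change of -0.10 with SE 0.17, adjusted p = 0.669). Its ratio to Rps27 was 5.51, 5.88 and 10.2 at P5 and 1.44, 1.27 and 2.91 at P30, so that every P30 ratio was below every P5 ratio. Rps27 has 13 places elsewhere in mm9 of up to 100% identity, so this ratio is uncertain. The coding sequences of this pair differ in 61 of 255 bases, in capitals, in contrast to the identical copy Gm9846 of Rps27.
Rps27, coding sequence: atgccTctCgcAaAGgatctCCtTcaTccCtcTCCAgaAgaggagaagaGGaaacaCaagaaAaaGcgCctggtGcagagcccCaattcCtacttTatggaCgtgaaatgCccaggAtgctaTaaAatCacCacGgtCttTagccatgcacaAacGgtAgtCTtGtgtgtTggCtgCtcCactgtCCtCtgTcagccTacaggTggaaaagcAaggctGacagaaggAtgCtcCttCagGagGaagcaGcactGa
Rps27l, coding sequence: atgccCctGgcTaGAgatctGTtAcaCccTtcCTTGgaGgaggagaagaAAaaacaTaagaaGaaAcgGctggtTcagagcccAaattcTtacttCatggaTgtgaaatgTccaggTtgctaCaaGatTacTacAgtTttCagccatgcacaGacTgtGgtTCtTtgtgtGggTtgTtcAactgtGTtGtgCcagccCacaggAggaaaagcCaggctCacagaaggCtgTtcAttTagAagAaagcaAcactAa

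Rpl7l1 had 91.8, 102 and 97.9 FPKM at P5 and 65.2, 79.7 and 82.0 at P30 (limma log2 change of -0.36 with SE 0.13, adjusted p = 0.0554). Rps4y2, annotated on chromosome 6, had 100.73, 102 and 101.36 FPKM at P5 and 127, 71.9 and 101.48 at P30 (limma log2 change of -0.05 with SE 0.20, adjusted p = 0.847). Rps19bp1, which encodes a regulator of Sirt1 and not a ribosomal protein, had 30.2, 35.4 and 35.0 FPKM at P5 and 14.9, 29.2 and 27.1 at P30 (limma log2 change of -0.53 with SE 0.26, adjusted p = 0.14). Rpl3l, the muscle form of Rpl3, had 2.03, 0 and 0 FPKM at P5 and 0, 1.43 and 1.38 at P30. Rpl39l, the germline form of Rpl39, had 2.51, 8.03 and 0 FPKM at P5 and 0, 3.97 and 9.98 at P30. Rpl10l, the germline form of Rpl10, was listed at 0 in all 6 isolations.

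RefSeq start sites (GRCm38.p6) were available for 63 of the 85 genes, and in 16 of them (25.4%) the annotated start opened a run of at least 5 C or T bases on the transcribed strand, against 5.28% of all 27025 symbols with a start. At the true start of an mRNA such a run marks it as under mTOR control. Whether the annotated starts are the true ones was not tested. The 4 genes with the longest runs from the start are shown from 10 bases before the annotated start to 20 bases from it, with the whole run in capitals, bases before the start included.
Rpl27a, chr7:109519185-109519214, plus strand: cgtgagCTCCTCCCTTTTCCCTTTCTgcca
Rpl15, chr14:18270967-18270996, minus strand: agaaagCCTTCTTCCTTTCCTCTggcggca
Rpl35, chr2:39005112-39005141, minus strand: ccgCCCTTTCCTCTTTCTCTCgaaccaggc
Rps10, chr17:27635225-27635254, minus strand: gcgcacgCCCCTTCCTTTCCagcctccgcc
These genes differed in the P30 split. Rpl27a had 113, 125 and 120.1 FPKM at P5 and 147, 162 and 113 at P30. Rpl15 had 136, 138 and 119 FPKM at P5 and 96.5, 92.9 and 92.3 at P30. Rpl35 had 179, 235 and 234 FPKM at P5 and 348, 299.8 and 134 at P30. P30 replicate 3 was the lowest of the 6 isolations in Rpl15 and Rpl35. Rps10 had 135, 153 and 123 FPKM at P5 and 370.1, 354 and 124 at P30. Rpl15 was nearly level across the P30 isolations, and Rps10 was higher in P30 replicates 1 and 2 than in P30 replicate 3, which lay within the P5 range. Over the 63 genes, the median difference between P30 replicates 1 and 2 and P30 replicate 3 was 1.36 log2 units with a run and 0.97 without.

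Groups of core genes were likewise lowest in P30 replicate 3. The 6 genes at the exit tunnel (Rpl17, Rpl23a, Rpl26, Rpl31, Rpl35 and Rpl39) summed to 694 to 855 FPKM at P5 and to 932, 845 and 399 in P30 replicates 1, 2 and 3. Of these 6, 1, Rpl26, passed an adjusted p of 0.05, as lower at P30, against 22.4% of all genes. A list of 9 of the genes mutated in Diamond-Blackfan anaemia, an inherited red cell aplasia, which is not complete, summed to 1352 to 1559 at P5 and to 2721, 2651 and 871 at P30. With all isolations, 0 of 9 passed in limma at an unadjusted p under 0.05. At an adjusted p under 0.05 it was also 0 of 9, against 22.4% of all genes lower at P30 and 16.1% higher. Without P30 replicate 3, 8 of 9 were higher at P30, against 18% of all genes, and with it as the only P30 isolation 8 of 9 were lower, against 26.2%. Of the 4 X-linked genes, Rpl10, Rpl36a, Rpl39 and Rps4x, only Rpl10 passed with all isolations, as lower at P30, and 1 of 4 is near the 22.4% of all genes.

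Genes of ribosome production and of the same translational control were compared. Of 24 ribosome biogenesis genes, 0 were higher at P30 at an unadjusted p under 0.05 in limma, against 2584 of all 12481 genes. With an adjusted p under 0.05, 12 were lower and 0 were higher, against 22.4% and 16.1% of all genes. The count lower was 10 without P30 replicate 3, with 1 higher, and 11 with P30 replicate 3 as the only P30 isolation, against 20.7%, 18% and 26.2% of all genes. The median log2 fold change was -0.39, and it was -0.42 without P30 replicate 3 and -0.62 with it as the only P30 isolation. The largest falls were those of Tsr1, which matures the small subunit, with 38.0, 47.8 and 55.9 FPKM at P5 and 12.03, 23.0 and 16.9 at P30 (limma log2 change of -1.42 with SE 0.26, adjusted p = 0.00546), and of Gar1, of the pseudouridylation particle, with 80.4, 102 and 104 FPKM at P5 and 43.3, 29.8 and 48.3 at P30 (limma log2 change of -1.23 with SE 0.20, adjusted p = 0.00365). Their P30 isolations all lay below P5. Of 18 other mRNAs that open with a C or T run, 7 were lower and 1 was higher, against 22.4% and 16.1% of all genes. Without P30 replicate 3, 7 were lower and 4 higher, against 20.7% and 18%, and with it as the only P30 isolation 10 were lower and 1 higher, against 26.2% and 13.8%. Eif4a2, a helicase of translation initiation, rose, with 699, 663 and 689.5 FPKM at P5 and 1076, 1229 and 1089 at P30 (limma log2 change of 0.72 with SE 0.09, adjusted p = 0.00145). Vim, the intermediate filament vimentin, fell, with 3837, 4108 and 3187 FPKM at P5 and 2245, 2275 and 1470.5 at P30 (limma log2 change of -0.91 with SE 0.19, adjusted p = 0.0099). Pabpc1, the poly(A)-binding protein, fell, with 653, 701 and 721 FPKM at P5 and 390.4, 489 and 322 at P30 (limma log2 change of -0.81 with SE 0.15, adjusted p = 0.00651). Naca, of the nascent chain complex, had 90.2, 99.2 and 109 FPKM at P5 and 298, 272 and 69.4 at P30, with P30 replicate 3 below every P5 isolation and the other P30 isolations above.

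Of 10 genes of the mTOR pathway that controls these mRNAs, 1 passed an adjusted p of 0.05, as lower, against 22.4% of all genes lower and 16.1% higher. This was the inhibitor Eif4ebp2, with 214, 236 and 230.0 FPKM at P5 and 130.4, 158 and 192 at P30 (limma log2 change of -0.52 with SE 0.15, adjusted p = 0.0288). Mtor itself had 50.6, 48.6 and 53.0 FPKM at P5 and 44.9, 56.6 and 47.2 at P30 (limma log2 change of -0.04 with SE 0.14, adjusted p = 0.837), with the ages overlapping. The 76 mitochondrial ribosomal protein genes did not share the split. Their summed FPKM was 5810 ± 236 at P5 and 4911 ± 137 at P30 (SD, n = 3). Their median difference between P30 replicates 1 and 2 and P30 replicate 3 was -0.01 log2 units. At an unadjusted p under 0.05 from limma 2 of 76 were higher at P30, against 2584 of all 12481 genes. With an adjusted p under 0.05, 22 of 76 were lower and 0 were higher, against 22.4% and 16.1% of all genes. The share lower was near that of all genes. Without P30 replicate 3, 18 were lower and 4 higher, against 20.7% and 18% of all genes, and with it as the only P30 isolation 25 were lower and 2 higher, against 26.2% and 13.8%. The largest falls among those 22 were in Mrpl19, with 17.8, 19.8 and 19.4 FPKM at P5 and 5.96, 11.3 and 11.5 at P30 (limma log2 change of -0.97 with SE 0.28, adjusted p = 0.031), and Mrpl50, with 67.5, 77.2 and 89.8 FPKM at P5 and 43.0, 43.0 and 36.8 at P30 (limma log2 change of -0.91 with SE 0.15, adjusted p = 0.00343). Every P30 isolation of both lay below every P5 isolation.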

How the data were processed

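Choroid ECs were sorted from 129/B6 mice, libraries were made with the TruSeq RNA kit and were sequenced on an Illumina instrument. Per the labels and methods, the authors called bases with CASAVA 1.8.2, aligned reads to mm9 with TopHat at default settings and computed the deposited FPKM with Cufflinks, using GC and upper quartile normalization. The 6 files hold FPKM for 22026 symbols, without counts, so depth is unknown and no counting interval can be given. FPKM is a relative value within an isolation, here scaled by its upper quartile.

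Samples were grouped by their titles. Values were tested as log2(FPKM + 1), with limma 3.58.1 (eBayes with a trend, R 4.3.3), on 12481 genes with a mean of at least 5 FPKM at either age, which 80 of the 85 ribosomal protein genes reached. The 5 below it included Rpl10l, Rpl39l, Rpl3l and Rps12. Fold changes are on the log2(FPKM + 1) scale and understate changes of low genes. P-values were adjusted by Benjamini-Hochberg over all genes tested. Calls used an adjusted p under 0.01 with a 2-fold difference of mean FPKM + 1, or an adjusted p under 0.05. As each isolation pools 7 animals, p-values measure the spread between pools. The fit was tested on simulated data. Same-numbered isolations had correlations of deviations of -0.06, -0.09 and -0.03, which gave no sign of pairing by number. With 3 isolations per age these values cannot exclude it.

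Coordinates, coding lengths and copies came from GENCODE M1 and NCBIM37 (mm9), with the lowest-numbered coding transcript per symbol. Windows of 50 bases were matched exactly, those overhanging an exon end by up to 8 bases counting as the gene's own place. Places elsewhere were found with BLAST 2.17.0 at 90% identity over 80% of the coding sequence. Coding length in GENCODE M1 was used in place of RefSeq protein length. Alternatives were 2 other pseudocounts, 2 other FPKM minimums, no trend, 3 scalings, a replicate block, core genes only and each isolation left out. The fit with P30 replicate 3 as the only P30 isolation and the restriction by copies were added after seeing the data.

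The text names the 5 highest and 5 lowest core genes, the 5 largest rises and falls, every called gene, paralogs, stalk, 5S and ubiquitin fusion genes, ribosomal protein genes outside the symbol rule, and up to 2 genes per direction in other lists. Some genes that this rule names are not reported here. Rps28, Rpl23, Rpl36, Rps3, Rps15, Rpl35, Naca, Mtor, the copies and the genes with long C or T runs were named after their values were seen. The genes and lists were chosen with earlier results of these data known.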

Additional observations from a re-analysis of the deposited data

How the results depend on the processing

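With all isolations, 9 genes were higher at P30 at an unadjusted p under 0.05 from limma, against 2584 of all 12481 genes. By the 2-fold rule 0 genes were called higher and 4 lower, against 5.89% and 5.82% of all genes. The count higher was 1 with FPKM scaled to the same sum or the same median, 2 with quantile normalization and 1 with the replicate block. It was 0 to 24 with each isolation left out, the 24 being without P30 replicate 3, against 6.77% of all genes there. The count lower was 0 among genes with under 50% of windows elsewhere, and 2 to 6 with each isolation left out. With an adjusted p under 0.05, 3 were higher and 14 lower, against 16.1% and 22.4% of all genes. The count higher was 6 with the replicate block, 0 among genes with under 50% of windows elsewhere, and 1 (without P5 replicate 3) to 41 (without P30 replicate 3) with each isolation left out. The 41 stood against 18% of all genes. The count lower was 23 with the same sum, 9 with the same median, 34 with P30 replicate 3 alone, 3 among genes with under 50% of windows elsewhere, and 4 (without P5 replicate 2) to 13 with each isolation left out. Other pseudocounts, minimums and eBayes without a trend left these counts within 1.5 times. The replicate block left the counts lower at 4 and 11, although no pairing of the isolations by number was seen. The shares of all genes under the scalings, the replicate block and most fits with an isolation left out are not given here. The counts from those fits therefore cannot be set against the background.

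The median log2 fold change of 0.06 became -0.11 with the same sum, where that of all genes was -0.27, 0.15 with the same median, -0.01 with quantile normalization, -0.29 among genes with under 50% of windows elsewhere and -0.10 to 0.47 with each isolation left out. The ratio of summed FPKM was 0.679 with P30 replicate 3 alone, 0.819 to 1.06 under the scalings and 0.907 to 1.16 with each isolation left out. Signs turned with P30 replicate 3 as the only P30 isolation in Rpl5 (-1.01), Rpl11 (-0.70), Rpl12 (-0.0842), Rpl22l1 (-0.23), Rpl34 (-0.0789), Rpl36a (-0.28), Rplp2 (-0.10), Rps27a (-0.64) and Rps4y2 (0.00325). Rpl5 was also at -0.16 with the same sum and Rps4y2 at 0.0397 with the same median. With each isolation left out, the log2 change ran from -0.32 to 0.52 in Rpl5, from -0.24 to 0.16 in Rps4y2, from -0.88 to 0.34 in Rpl31 and from -0.24 to 0.0701 in Rps27l. The cause of these shifts was not tested. With FPKM alone, the depth behind low values cannot be judged.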

Other observations

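Symbols of small RNAs also divided the isolations. Of 105 small nucleolar RNA symbols, which mostly lie in introns of other genes, 4 reached at least 5 FPKM in P5 replicate 1, 5 in P5 replicate 2 and 9 in P5 replicate 3. At P30 the numbers were 22 in replicate 1, 26 in replicate 2 and 2 in replicate 3. Of 605 microRNA symbols, 7, 9 and 4 reached that level at P5, and 31, 29 and 10 did at P30. P30 replicate 3 thus lay below or near the P5 isolations, and P30 replicates 1 and 2 lay above them. These values belong to no comparison, and whether they bear on the ribosomal protein genes was not tested.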
